A study of Gossypium hirsutum with 6 samples.

Results

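GIGANTEA genes were taken as the rows of the deposited gene table whose protein description names GIGANTEA and whose mean level reached 1 FPKM (a level corrected for transcript length and library size) in at least 1 of the 2 groups of libraries. They numbered 4 of 72761 listed genes, and of 43837 genes that reached the same minimum. No row described as GIGANTEA fell below it, and the lowest group mean of a member was 12.2 FPKM, so all 4 passed in both groups. The table holds leaf RNA of upland cotton (Gossypium hirsutum), poly-A selected and sequenced from 3 libraries of FPF1 transgenic lines and 3 of the wild type. FPF1 (flowering-promoting factor 1) was studied for its part in shade avoidance, by which crowded plants elongate. The labels give no promoter, no number of lines or plants, no light conditions and no hour of collection, and nothing says that the replicates of a group came from separate plants, so each p-value reflects sample-to-sample spread that may be technical.

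GIGANTEA is a large, plant-specific protein of the nucleus and cytoplasm. In Arabidopsis its transcript cycles with the day and peaks before dusk. There it holds and stabilises the blue-light receptors of the ZEITLUPE and FKF1 type, F-box proteins that send clock proteins and CYCLING DOF FACTOR repressors to degradation, and so acts on both the circadian clock and photoperiodic flowering through CONSTANS and FLOWERING LOCUS T.

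The library labels were set beside 1 gene, GH_D02G0524, described as flowering-promoting factor 1-like. Other genes of that family are not shown here, so it is no independent check of the labels. GH_D02G0524 measured 133, 199 and 195 FPKM in the transgenic libraries 1 to 3, against 0, 0 and 0.467 FPKM in the wild-type libraries 1 to 3. The labels do not tie the FPF1 of the study to an identifier, and reads of a transgene and of the resident gene cannot be told apart here. Each library had 52037 to 53560 genes above 0. Total read counts were not used here, and relative depth, estimated from the lowest values, was 0.990 to 1.14 for the transgenic libraries and 1.19 to 1.28 for the wild type, with transgenic library 1 set to 1.

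All 4 GIGANTEA genes had lower transcript levels in every transgenic library than in any wild-type library, as did 9.51% of all genes tested. They lie on chromosomes A02, D02, A05 and D05, 1 copy in each subgenome of an A02/D02 and an A05/D05 pair. The A02/D02 pair had 36.7% (A02) and 46.04% (D02) of its mean wild-type level in the transgenic leaves, and the A05/D05 pair 67.99% (A05) and 63.6% (D05). In such bulk leaf samples fewer cells of a type and less RNA per cell cannot be told apart. The 4 genes also carry the same KEGG orthology entry, which no other row of the table has, and an identical set of 17 GO terms. Among these terms, temperature compensation of the circadian clock is assigned to 4 genes of the table, namely these.

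GH_A02G0676 (protein GIGANTEA-like isoform X1) measured 13.2, 11.9 and 11.4 FPKM in the transgenic libraries, against 34.9, 32.4 and 32.1 FPKM in the wild type. The lowest wild-type library was 2.43 times the highest transgenic one, which was the widest gap among the 4 genes. The means were 12.2 ± 0.924 FPKM in the transgenic and 33.1 ± 1.54 FPKM in the wild-type libraries (SD, n = 3 each, as for all means below). GH_D02G0687 (protein GIGANTEA isoform X1) measured 21.0, 18.6 and 18.1 FPKM in the transgenic libraries, against 45.2, 40.8 and 39.3 FPKM in the wild type. Its means were 19.2 ± 1.55 FPKM in the transgenic and 41.8 ± 3.06 FPKM in the wild-type libraries, and the groups were separated by a factor of 1.87. In both genes of this pair, library 1 was the highest of its group.

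GH_A05G2464 (protein GIGANTEA-like) measured 64.3, 66.9 and 68.8 FPKM in the transgenic libraries, against 102, 98.4 and 94.0 FPKM in the wild type. GH_D05G2485 (protein GIGANTEA-like) measured 59.5, 62.2 and 66.3 FPKM in the transgenic libraries, against 99.4, 94.3 and 102 FPKM in the wild type. The groups did not overlap here either, but lay closer, at factors of 1.37 and 1.42 between the lowest wild-type and the highest transgenic library. GH_A05G2464 averaged 66.7 ± 2.24 FPKM in the transgenic and 98.0 ± 3.83 FPKM in the wild-type libraries. GH_D05G2485 averaged 62.7 ± 3.44 FPKM in the transgenic and 98.5 ± 3.83 FPKM in the wild-type libraries. In the order of levels the A05 and D05 genes were not separated by their spread in either group, D02 stood next and A02 was lowest, each with no overlap with its neighbour. Within groups the coefficient of variation of the 4 genes was 3.36% to 8.05%, and the median over the 16897 genes that averaged 10 FPKM or more in both groups was 9.65% in the transgenic and 10.8% in the wild-type libraries.

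**Figure D1:**
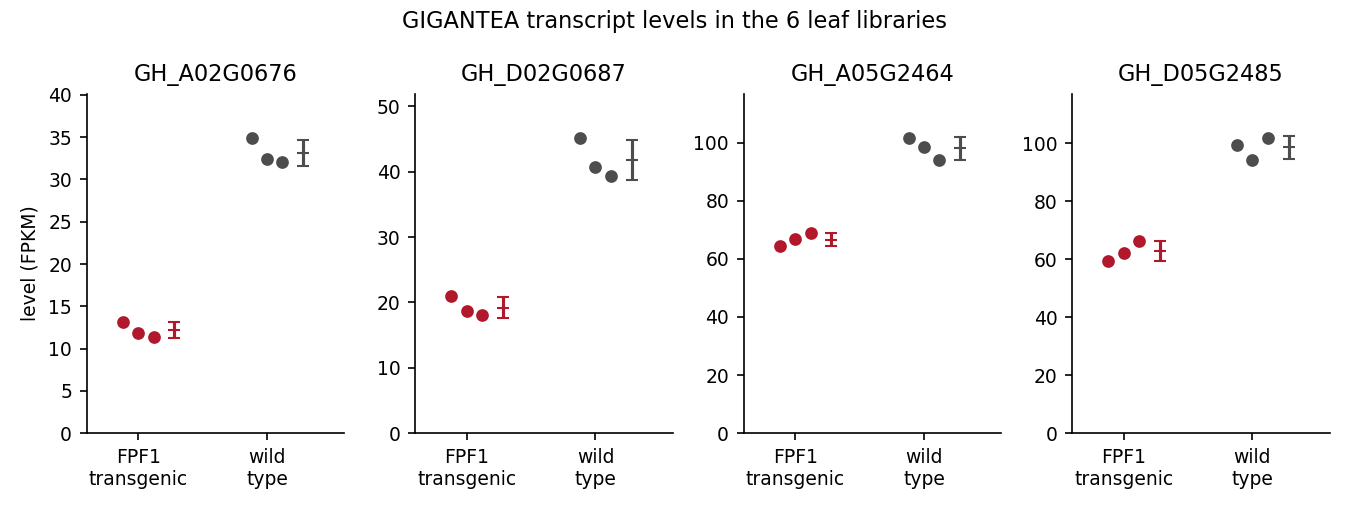
Level in FPKM of the 4 GIGANTEA genes, each panel with its own axis from 0. Points are the libraries 1 to 3 of a group in order, with the mean and SD beside them (n = 3). The transgenic points lie below all wild-type points in each panel, most widely apart for GH_A02G0676.

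The differences were taken from a fit to all 43837 genes (limma on log2(FPKM + 1), two-sided, with Benjamini-Hochberg adjustment across the table), as transgenic minus wild type. The log2 difference of GH_A02G0676 was -1.38 with a standard error of 0.0998 and an adjusted p of 0.00170, the 8th smallest p among all genes with a negative difference. GH_D02G0687 had a log2 difference of -1.08 with a standard error of 0.106 and an adjusted p of 0.00481. The difference of GH_D05G2485 was -0.65 (standard error 0.0943, adjusted p = 0.0146) and that of GH_A05G2464 was -0.55 (standard error 0.0907, adjusted p = 0.0205). Of all genes tested, 0.933% had a larger fall than GH_A02G0676 and 5.87% a larger one than GH_A05G2464. The 4 genes were thus all called lower, beside 1.78% of all genes tested, and their lack of overlap stands beside 9.51% of all genes with every transgenic library below every wild-type one. Members and minimum were chosen on these values and with the outcome known, so nothing is read from that count.

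The calls of GH_A02G0676 and GH_D02G0687 held in all 13 other settings tried, with adjusted p up to 0.0211 and 0.0393. The calls of the A05/D05 pair did not. Without transgenic library 2 the adjusted p was 0.0930 for GH_A05G2464 and 0.0779 for GH_D05G2485, and without wild-type library 1 it was 0.103 and 0.0794. GH_A05G2464 was also not called without transgenic library 3 (adjusted p = 0.0665). The log2 differences themselves stayed between -0.64 and -0.52 for GH_A05G2464 and between -0.73 and -0.61 for GH_D05G2485.

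**Figure D2:**
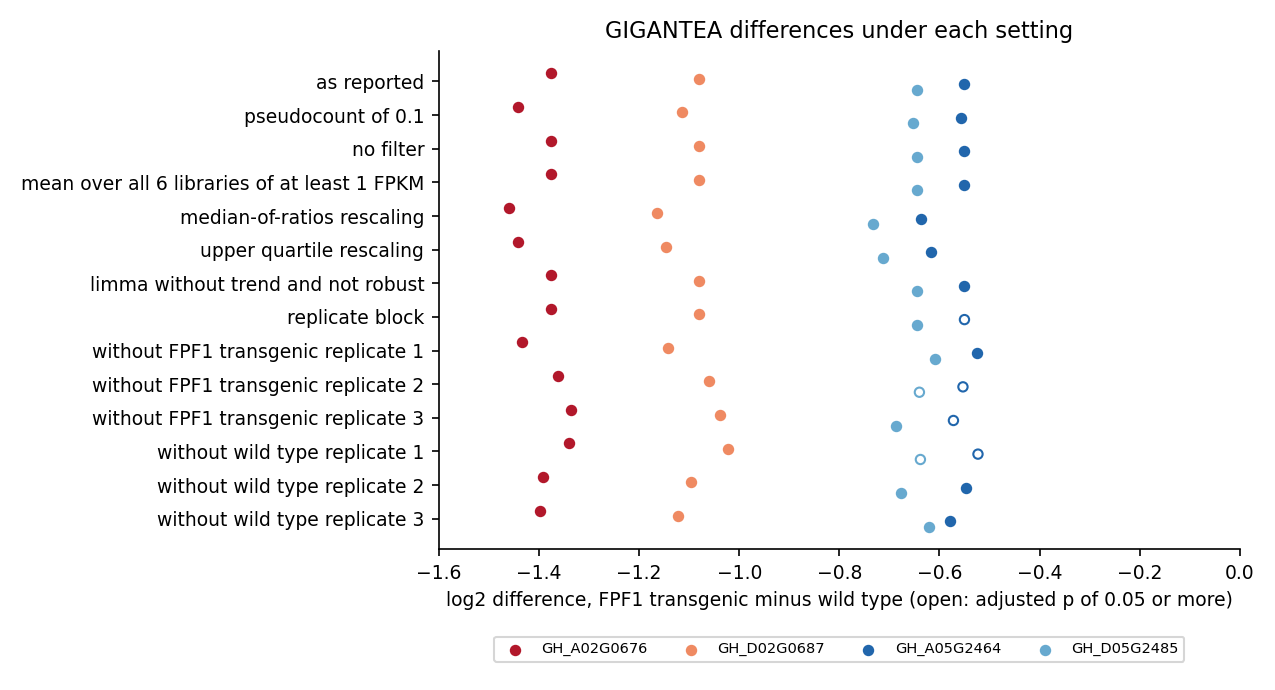
Log2 difference (transgenic minus wild type) of each GIGANTEA gene as reported and under the 13 alternatives, with filled points at an adjusted p under 0.05 and open points otherwise. GH_A02G0676 and GH_D02G0687 are filled throughout, and the open points belong to GH_A05G2464 and GH_D05G2485.

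The authors' deposited table gives the same direction. Its ratio of transgenic to wild-type mean was 0.367 for GH_A02G0676 and 0.460 for GH_D02G0687, with q-values of 2.29e-14 and 8.95e-09. In the authors' deposited table the ratio was 0.680 for GH_A05G2464 (q = 0.00609) and 0.636 for GH_D05G2485 (q = 0.00109). Only the A02 and D02 genes carry its mark of significance, and no gene with a change under 2-fold carries that mark in the authors' deposited table.

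The make-up of the GIGANTEA transcript pool differed between the groups. Summed over the 4 genes, the level was 158, 160 and 165 FPKM in the transgenic libraries, against 281, 266 and 267 FPKM in the wild type. The A02/D02 pair made up 21.6%, 19.1% and 17.9% of that sum in the transgenic libraries, against 28.5%, 27.5% and 26.7% in the wild type. The A05/D05 pair therefore stood at 3.62, 4.23 and 4.58 times the A02/D02 pair in the transgenic libraries, against 2.51, 2.63 and 2.74 times in the wild type. The groups did not overlap in this ratio. How often ratios of other genes lack overlap was not computed, so nothing is read from that. Ratios were not tested, since they are scores over genes chosen with results known.

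Within the A02/D02 pair the ratio of the subgenome copies differed between the groups as well. The A02 gene stood at 0.629, 0.637 and 0.632 of the D02 gene in the transgenic libraries, against 0.773, 0.796 and 0.816 in the wild type. The SD of this ratio was 0.00430 in the transgenic and 0.0218 in the wild-type libraries, and the groups did not overlap. Here too the share of other gene pairs without overlap was not computed, and nothing is read from it. Within the A05/D05 pair the ratio of A05 to D05 was 1.08, 1.08 and 1.04 in the transgenic libraries, against 1.02, 1.04 and 0.924 in the wild type, and there the groups overlapped. Over all 4 genes the A subgenome held 48.7% to 49.4% of the sum in the transgenic and 47.2% to 49.2% in the wild-type libraries, also with overlap. How the authors assigned reads that match both copies of a pair is not given in the sources used here, so levels of the copies may share reads.

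**Figure D3:**
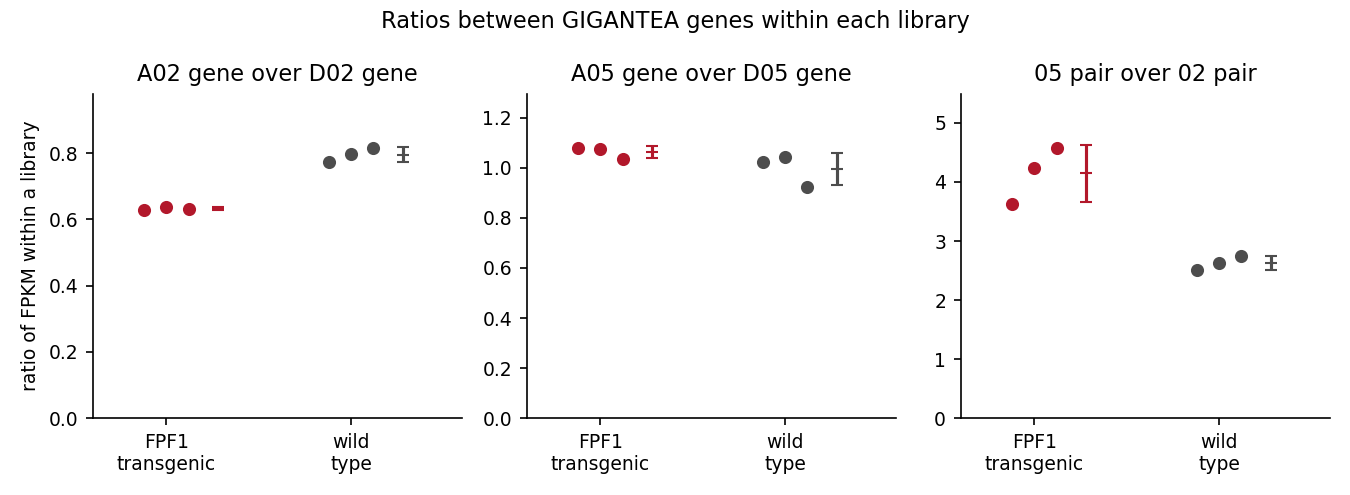
Ratios of FPKM within a library for the A02 over the D02 gene, the A05 over the D05 gene and the summed A05/D05 pair over the summed A02/D02 pair. Points are libraries, with the mean and SD beside them (n = 3 a group). The groups are apart in the first and last panel and overlap in the middle one.

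No gene next to the 4 members was called. With 5.7% of all genes tested called in either direction, nothing is read from 0 calls among 13 neighbours. Taking the 2 identifiers on each side of every member, a choice made after the member values were seen, gave 16 neighbours, of which 13 were expressed enough to be tested and 0 were called. By limma their log2 differences ran from -0.25 to 0.36 (smallest adjusted p = 0.244), and 0 had an unadjusted p under 0.05. Among all 43837 genes tested, 10524 had such an unadjusted p. A gene described as type I inositol 1,4,5-trisphosphate 5-phosphatase 1-like lay next to or near the GIGANTEA gene on both A02 and D02. On A02 (GH_A02G0674) it averaged 2.47 ± 0.300 FPKM in the transgenic and 3.16 ± 0.753 FPKM in the wild-type libraries, and on D02 (GH_D02G0686) 5.01 ± 0.712 FPKM in the transgenic and 6.09 ± 1.30 FPKM in the wild-type libraries. On A05 and D05 the GIGANTEA gene was flanked on one side by a UDP-galactose transporter 2-like gene below the minimum and on the other by an S-adenosylmethionine carrier gene. GH_A05G2465, the carrier on A05, stood at 8.24 ± 0.827 FPKM in the transgenic and 6.56 ± 0.918 FPKM in the wild-type libraries, with a log2 difference of 0.29 that was not called.

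**Figure D4:**
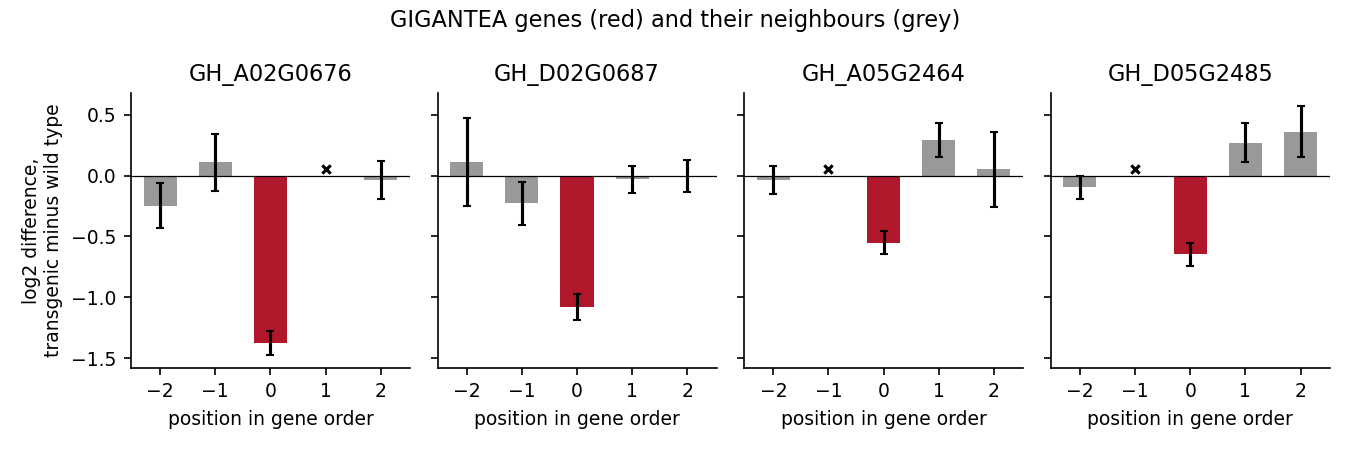
Log2 difference (transgenic minus wild type, bars with standard errors) of each GIGANTEA gene at position 0 and of the genes up to 2 places away in identifier order, where a cross marks a gene below the minimum. The bars of the neighbours lie between -0.25 and 0.36, and those of the GIGANTEA genes between -1.38 and -0.55.

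Of the blue-light F-box proteins that work with GIGANTEA in Arabidopsis, FKF1-type genes fell in part. FKF1, which with GIGANTEA clears flowering repressors in the afternoon, is described here as adagio protein 3, and 2 of its 4 tested genes fell. GH_A12G1715 measured 23.2, 20.9 and 20.3 FPKM in the transgenic libraries, against 45.0, 42.9 and 47.6 FPKM in the wild type (log2 difference -1.04, standard error 0.0988, adjusted p = 0.00466 by limma). Its call held in every setting tried. GH_D12G1711 measured 38.3, 28.5 and 29.9 FPKM in the transgenic libraries, against 70.9, 62.9 and 70.6 FPKM in the wild type (log2 difference -1.07). That call ended without transgenic library 2 or wild-type library 1, at an adjusted p of up to 0.0564 by limma. The other adagio 3 genes, GH_D01G1656 and GH_A01G1617, had log2 differences of -0.40 and -0.24 and were not called (adjusted p = 0.0601 and 0.251 by limma). Of the 4 adagio 3 genes, 3 were lower at an unadjusted p under 0.05, and 3 were called lower after median-of-ratios rescaling. Of the 4 tested genes described as adagio protein 1, the name of ZEITLUPE, limma called 0 (1 at an unadjusted p under 0.05, lower) and their log2 differences ran from -0.28 to 0.20. Of all genes tested, 1.78% were called lower, and 10524 of 43837 had an unadjusted p under 0.05 by limma. A difference between the families was not tested.

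CYCLING DOF FACTORs, the repressors that the GIGANTEA and FKF1 complex removes in Arabidopsis, had 2 falls and 1 rise among 9 tested of 13 listed genes, with a median log2 difference of -0.03. Over all genes tested, 1.78% were called lower and 3.92% higher. The falls were cyclic dof factor 1-like genes of low level. Both reached the minimum of 1 FPKM in the wild type only, so nothing is read from their count. GH_A12G1838 measured 0.599, 0.782 and 0.947 FPKM in the transgenic libraries, against 3.56, 5.37 and 3.19 FPKM in the wild type (log2 difference -1.48, adjusted p = 0.0129 by limma). GH_D12G1834 averaged 0.491 ± 0.237 FPKM in the transgenic and 2.63 ± 0.642 FPKM in the wild-type libraries (log2 difference -1.28). GH_D08G2489, cyclic dof factor 2-like, was higher, at 7.34, 8.76 and 7.51 FPKM in the transgenic libraries, against 3.04, 3.96 and 3.98 FPKM in the wild type (log2 difference 0.93, adjusted p = 0.0171 by limma). Each of these 3 calls ended without transgenic library 2 and without wild-type library 1, and those of GH_D12G1834 and GH_D08G2489 also without transgenic library 3, with adjusted p up to 0.105 over these libraries.

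Downstream of GIGANTEA, no description named CONSTANS itself, and the 2 genes described as HEADING DATE 3A, the rice name of FLOWERING LOCUS T, the mobile flowering signal, were not expressed enough to be tested. GH_A08G2605 was listed at 0 in every library. GH_D08G2598 was listed at 0 in all transgenic libraries and at 0.0800, 0.0939 and 0 FPKM in the wild type.

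Among genes of other proteins that bind GIGANTEA in Arabidopsis, and of their relatives, some were called, all of them lower. Of all genes tested, 1.78% were called lower and 5.7% in either direction, and 10524 of 43837 had an unadjusted p under 0.05 by limma. The RAV and TEMPRANILLO group was listed for the TEMPRANILLO repressors of FLOWERING LOCUS T. None of its genes is described as TEMPRANILLO, and the called one, GH_D12G1890, is described as RAV1. GH_D12G1890 measured 111, 90.5 and 115 FPKM in the transgenic libraries, against 198, 241 and 223 FPKM in the wild type. Its log2 difference was -1.06 (adjusted p = 0.00933 by limma, 0.0507 without transgenic library 2). The second tested gene of that group, GH_A03G1130 (RAV1-like), was not called. GH_A13G0535, described as RAV2-like, averaged 0.733 FPKM in the transgenic and 0.825 FPKM in the wild-type libraries, below the minimum. HSP90, the chaperone that matures ZEITLUPE together with GIGANTEA, had 2 falls among 14 tested genes, GH_A03G0302 (log2 difference -0.86) and GH_D08G1386 (-0.63). Both were lost without transgenic library 2, transgenic library 3, wild-type library 1 or wild-type library 2, and in addition without transgenic library 1 for GH_A03G0302 and without wild-type library 3 for GH_D08G1386, with adjusted p up to 0.134. SPINDLY, an enzyme that adds sugars to proteins, had 3 tested genes and 0 calls by limma (2 at an unadjusted p under 0.05, both higher), with GH_D12G2068 at 12.6 ± 1.01 FPKM in the transgenic and 9.56 ± 1.57 FPKM in the wild-type libraries. SOS2, a kinase of salt tolerance described as CBL-interacting protein kinase 24, had 2 tested genes and 0 calls by limma (1 at an unadjusted p under 0.05, higher), with GH_D06G0575 at 23.4 ± 0.895 FPKM in the transgenic and 21.7 ± 1.41 FPKM in the wild-type libraries.

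Among clock genes the pseudo-response regulators, repressors that follow each other through the day, had 14 falls and 0 rises by limma among 25 tested. Of all genes tested, 1.78% were called lower and 3.92% higher. At an unadjusted p under 0.05 by limma there were 15 falls and 1 rise, beside 10524 of 43837 genes in either direction. The median log2 difference of the family was -0.66, against 0.08 over all genes. Upper quartile rescaling gave 13 falls. Without transgenic library 2, transgenic library 3 or wild-type library 1 there were 7, 8 and 7. Over all genes tested, the 780 called lower became 107, 266 and 122 in the same fits. By name the 14 falls comprised all 7 APRR5 genes, all 3 APRR3 genes and 4 of 6 APRR7 or PRR37 genes. By contrast, limma called 0 of 4 APRR1 (TOC1) and 0 of 4 APRR2 genes (1 APRR1 gene and 0 APRR2 genes at an unadjusted p under 0.05). The 1 tested APRR9 gene, GH_A07G1041, had a log2 difference of -1.02 and was not called (unadjusted p = 0.0123, adjusted p = 0.102 by limma). GH_A07G1041 and the called APRR5 gene GH_D11G1084 reached the minimum in the wild type only. The gene with the smallest p was GH_D04G0005 (APRR5), at 22.1, 18.8 and 20.2 FPKM in the transgenic libraries, against 57.2, 53.7 and 62.0 FPKM in the wild type. Its log2 difference of -1.46 (standard error 0.106, adjusted p = 0.00170 by limma) was close to that of GH_A02G0676, a likeness that was not tested. Its call held in every setting tried.

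The remaining clock lists had fewer calls than the pseudo-response regulators. Of all genes tested, 1.78% were called lower and 3.92% higher. Of 32 tested genes of the evening complex and its relatives (EARLY FLOWERING 3 and 4 and PCL1, the name of LUX), which represses growth and clock genes at night in Arabidopsis, 3 rose and 1 fell. The fall was GH_D07G1080, PCL1-like, at 15.1, 11.8 and 13.6 FPKM in the transgenic libraries, against 22.8, 23.9 and 23.9 FPKM in the wild type (log2 difference -0.77). The rises were EARLY FLOWERING 3-like genes, led by GH_A07G0243 at 17.9, 17.6 and 18.1 FPKM in the transgenic libraries, against 10.9, 8.20 and 10.9 FPKM in the wild type (log2 difference 0.79). The other two rises, GH_D07G0249 and GH_A07G0242, had log2 differences of 0.48 and 0.41 and were not called after either rescaling. All 4 calls ended without transgenic library 2, transgenic library 3 or wild-type library 1 (adjusted p up to 0.176 by limma).

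Of 12 tested REVEILLE genes, morning transcription factors, limma called 0 (2 at an unadjusted p under 0.05, both lower). Of all genes tested, 5.7% were called in either direction, and 10524 of 43837 had an unadjusted p under 0.05. The median log2 difference of the REVEILLE genes was 0.01 as deposited and -0.07 or -0.05 after rescaling. GH_A12G2750 (REVEILLE 6) averaged 39.9 ± 2.33 FPKM in the transgenic and 40.4 ± 1.95 FPKM in the wild-type libraries. Of 3 tested LHY genes, repressors of the morning in the clock, limma called 0 (1 at an unadjusted p under 0.05, lower). GH_D11G1089 was the most abundant, at 1.40, 1.99 and 1.73 FPKM in the transgenic libraries, against 2.71, 5.71 and 3.47 FPKM in the wild type (adjusted p = 0.0906 by limma).

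Over the 10 partner and clock lists with tested genes, 22 genes fell and 4 rose among 110 tested, beside 5.7% of all genes called in either direction. The 26 calls became 8 without transgenic library 2, 12 without transgenic library 3 and 9 without wild-type library 1. Over all genes tested, the 2500 calls became 289, 803 and 420 in the same fits. These lists were drawn up with earlier results of these data known.

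**Figure D5:**
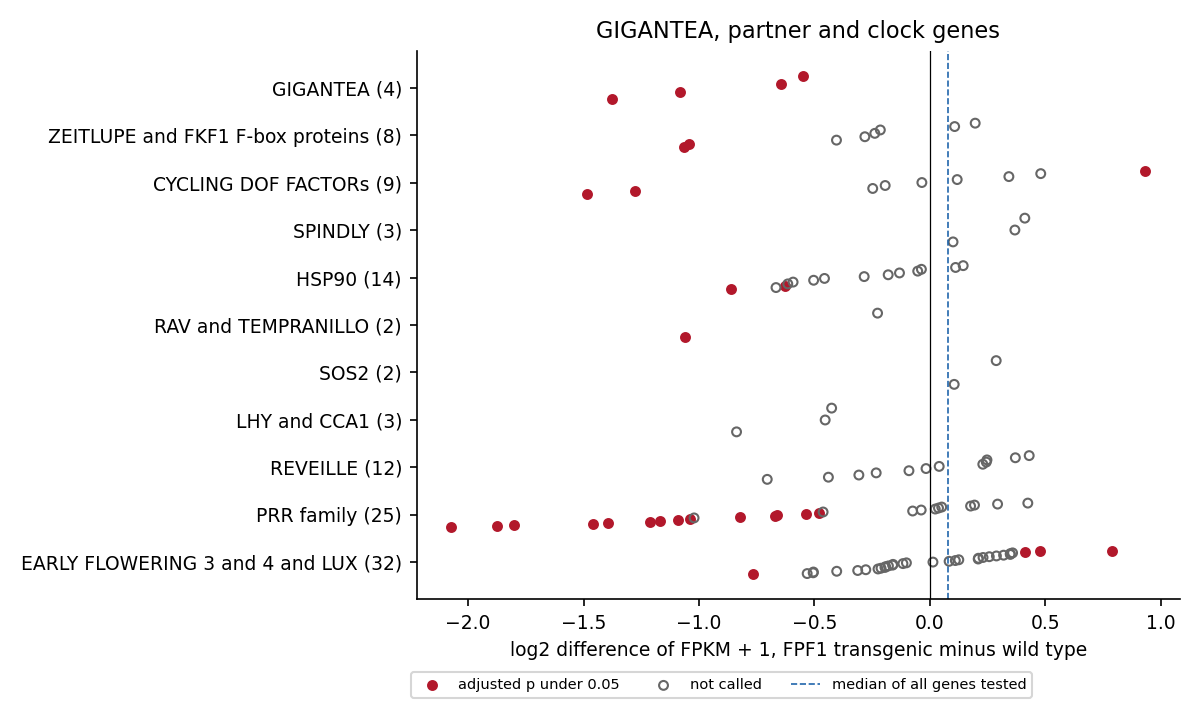
Log2 difference (transgenic minus wild type) of the 4 GIGANTEA genes and of every tested gene of the partner and clock lists, with the number tested in brackets. Red points have an adjusted p under 0.05, open points do not, and the dashed line is the median of all genes tested, 0.08. The pseudo-response regulators reach from -2.07 upwards, and the GIGANTEA genes lie between -1.38 and -0.55.

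Among 20413 described genes averaging 5 FPKM or more over all libraries, the closest to the mean GIGANTEA profile over the 6 libraries was GH_A13G1975, histone H1-like, by the root mean square difference of centred log2(FPKM + 1) (0.0485). It measured 334, 301 and 320 FPKM in the transgenic libraries, against 654, 627 and 587 FPKM in the wild type. Next came GH_D09G1716, a pseudo-response regulator of the APRR7 type (0.0558), at 31.2, 29.0 and 31.0 FPKM in the transgenic libraries, against 55.5, 54.9 and 53.2 FPKM in the wild type. The third was GH_A08G0728, photosystem I reaction center subunit II (0.0760), and the fourth GH_D11G3068, a DnaJ-like chaperone (0.0837). GH_A08G1929 (myb-like protein J), the adagio 3 gene GH_A12G1715, GH_D13G1936 (histone H1-like) and GH_A09G2116 (transaldolase-like) followed, at 0.0879 to 0.0960. The members themselves lay 0.101 to 0.237 from their own mean profile. The 8 genes were picked as the closest of 20413, so nothing is read from their smaller distances. The 6 libraries fall into 2 groups, so the measure scores the step between the groups above all.

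Markers of leaf and of other tissues also moved between the groups. Mesophyll markers (RuBisCO small subunits, RuBisCO activase and chlorophyll a-b binding proteins) were abundant in every library, with 2 of 62 listed genes, a CP29.2 and a CP26 gene, at 0 throughout. Of 54 tested, 24 fell and 3 rose, beside 1.78% of all genes tested called lower and 3.92% called higher. The 62 listed genes summed to 2586 to 3284 FPKM in the transgenic and 4045 to 5578 FPKM in the wild-type libraries. Secondary-wall markers of xylem had 10 rises and 0 falls among 14 tested of 33 listed genes. The 33 listed genes summed to 45.3 to 95.3 FPKM in the transgenic and 10.97 to 12.47 FPKM in the wild-type libraries. Without transgenic library 2, transgenic library 3 or wild-type library 1 the mesophyll falls numbered 11, 12 and 12. The xylem rises numbered 4, 7 and 5 in these fits. Over all genes tested, calls in either direction went from 2500 to 289, 803 and 420, and those lower from 780 to 107, 266 and 122. Only 3 of these 14 xylem genes reached the minimum in the wild type, and 7 listed laccase genes were at 0 throughout. Markers of dividing cells (6 tested), floral organs (1 tested) and seed (7 tested) had 0 calls by limma (2, 1 and 3 at an unadjusted p under 0.05, all lower), and 2 listed 2S albumin genes were at 0 throughout. Of all 43837 genes tested, 10524 had an unadjusted p under 0.05. The sums over all listed dividing-cell, floral and seed markers ran over 102 to 116, 0.0795 to 0.203 and 21.4 to 62.2 FPKM in the transgenic libraries, against 123 to 131, 1.40 to 5.52 and 31.4 to 71.7 FPKM in the wild type. The part of tissue make-up in the GIGANTEA values was not tested.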

How the data were processed

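Poly-A selected leaf RNA was sequenced from 3 FPF1 transgenic and 3 wild-type samples. The authors deposited FPKM per gene and library, a fold change that equals the ratio of the group mean FPKM, its log2, and a p-value and q-value whose test is not named in the file headers. The aligner, counter, build, annotation and use of the strand are not given in the sources used here. The smallest value, 1e-04, was read as 0. None of the 72761 identifiers was found in the RefSeq gene table used here, so names come from the deposited descriptions and chromosomes from the identifiers.

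The 43837 genes averaging 1 FPKM or more in either group entered limma 3.58.1 (R 4.3.3), fitted to log2(FPKM + 1) without covariates, with eBayes set to trend and robust. Calls needed an adjusted p under 0.05. Because of the pseudocount of 1, log2 differences of genes of low level are smaller than the ratio of their levels. Relative depth was read from ratios of values under 0.15 FPKM. Counts were not used here, so the depth behind each value is unknown. The fit was tested on simulated data.

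Named genes were all members, the called gene of each partner or clock list with the smallest p in each direction (or the most abundant gene where none was called), genes that make up a count of 5 or fewer, and the 8 described genes closest in profile. A few uncalled genes were added after their values were seen. The members and lists were chosen with earlier results of these data known. The search patterns of 4 lists were narrowed after the gene descriptions were seen. The alternatives were another pseudocount, other minimums, 2 rescalings, plain limma, a replicate block and leaving out each library.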

Additional observations from a re-analysis of the deposited data

How the results depend on the processing

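All 4 GIGANTEA genes were called lower with a pseudocount of 0.1, with no filter, with a minimum on the mean over all 6 libraries, after median-of-ratios or upper quartile rescaling, and with limma without trend and robust estimation. Leaving out 1 library each gave 2 to 4 members called, 8 to 22 partner and clock list genes called (26 with all libraries) and 289 to 2552 genes called in all (2500). Where 1 library is left out of a group of 3, the spread is pooled over the remaining 5. Same-numbered libraries did not deviate together (correlations of 0.0136, 0.0261 and 0.0740 over genes), so the numbers were not taken as pairs. The fit with a replicate block called 1532 genes, and 3 of the 4 members, with GH_A05G2464 at an adjusted p of 0.0660 by limma. The median log2 difference of all genes went from 0.08 as deposited to 0.003 after median-of-ratios and 0.02 after upper quartile rescaling. Genes called lower went from 780 to 995 and 967, and rises in the partner and clock lists from 4 to 2 after either. The log2 difference of GH_A12G2750 (REVEILLE 6), -0.02 and not called, ran from -0.062 to 0.009 over the libraries left out, with a positive sign without transgenic library 2, transgenic library 3, wild-type library 1 or wild-type library 3. The total number of reads is unknown, so the counting error of single values cannot be given.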
